A study of Mus musculus with 6 samples.

Results

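The 9 genes described here act on Notch before and during its cleavage, or hold it back. They are the fringe glycosyltransferases Lfng, Mfng and Rfng, the sheddases Adam10 and Adam17, the gamma-secretase subunit genes Psen2, Ncstn and Aph1a, and the endocytic adaptor Numb. They were chosen by name for this role, with earlier results of these data known. All 9 were found among the 14298 genes listed for the aortic arch. Each library was polyA RNA from the aortic arch of adult C57/BL6 mice that lacked apolipoprotein E (ApoE-/-), a model prone to atherosclerosis. All animals carried RBPJflox/flox, floxed alleles of the gene for RBPJ, through which Notch reaches DNA. At 8 weeks old they all had 1 week of tamoxifen, and then 6 weeks of high-fat diet. The 3 knockout libraries came from animals with an added Cdh5-CreERT allele, whose recombinase is driven in endothelial cells and needs tamoxifen, and the 3 controls had no recombinase. The groups therefore differed in the recombinase as well as in the deletion, and whole-arch RNA mixes endothelium with smooth muscle, fibroblasts, leukocytes and fat.

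Notch receptors are decorated with O-linked sugars in the secretory pathway. Fringe enzymes extend O-fucose on the receptor and so alter which ligands activate it. After a ligand binds, a surface metalloprotease of the ADAM family sheds the receptor's outer part, and gamma-secretase cuts the remaining stub within the membrane. That complex holds a presenilin as its catalytic subunit, nicastrin, an APH1 protein and PEN-2. The freed intracellular domain joins RBPJ on DNA. Numb promotes the removal of Notch from the membrane, and both proteases and gamma-secretase also cut many other surface proteins, cytokines and their receptors among them.

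Levels are normalised CPM (read counts scaled to library size), and means are ± SD over n = 3 libraries. A log2 fold change is knockout minus control on the log2(CPM + 1) scale, which understates changes of low genes. Each library held between 5904504 and 10072495 reads of the listed genes. Rbpj itself read 189 ± 13.2 over the controls and 193 ± 21.7 over the knockouts (limma, log2 fold change 0.03, adjusted p = 0.923). The sign of this difference was negative without control S591 (−0.03) or without knockout S599 (−0.05). Whole-arch RNA cannot check a deletion confined to endothelium. All 10 endothelial markers examined were present, and their sum ran from 1096 to 1160 CPM in the controls and from 890 to 1376 in the knockouts. Over all genes, control S591 differed less from knockouts S599 and S595 (chi-square per degree of freedom 15.18 and 20.85) than from controls S592 and S594 (32.31 and 34.11). The series' design names 3 animals per genotype, and the library numbers (S591 to S599) are not tied to single samples.

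By limma, 0 of the 9 genes passed an adjusted p of 0.05, against 0.0210% of all genes. At an unadjusted p of 0.05, 5 of them (Lfng, Adam17, Psen2, Ncstn and Aph1a) were lower in the knockout arches, against 12.0% of all genes, and 0 were higher, against 8.04%. In the same 5 genes every knockout value lay below every control value, which held for 14.2% of all genes. The median log2 fold change was −0.44 over the 9 genes and −0.02 over all genes. On the recovered reads edgeR's quasi-likelihood test and limma-voom also called 0 of the 9, while DESeq2 called Adam17 (adjusted p = 0.0439), in a test that called 4.56% of the genes it adjusted as lower. With limma's array weights, which count some libraries more than others, Lfng, Adam17 and Psen2 passed (3 of the 9), beside 5.06% of all genes called lower. Without control S591, 0 of the 9 passed by limma, beside 671 of the 14298 genes (470 of them lower). In that fit the log2 fold changes of the 5 lower genes ran from −1.003 (Lfng, adjusted p = 0.0560) to −0.464 (Aph1a, adjusted p = 0.103).

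**Figure D1:**
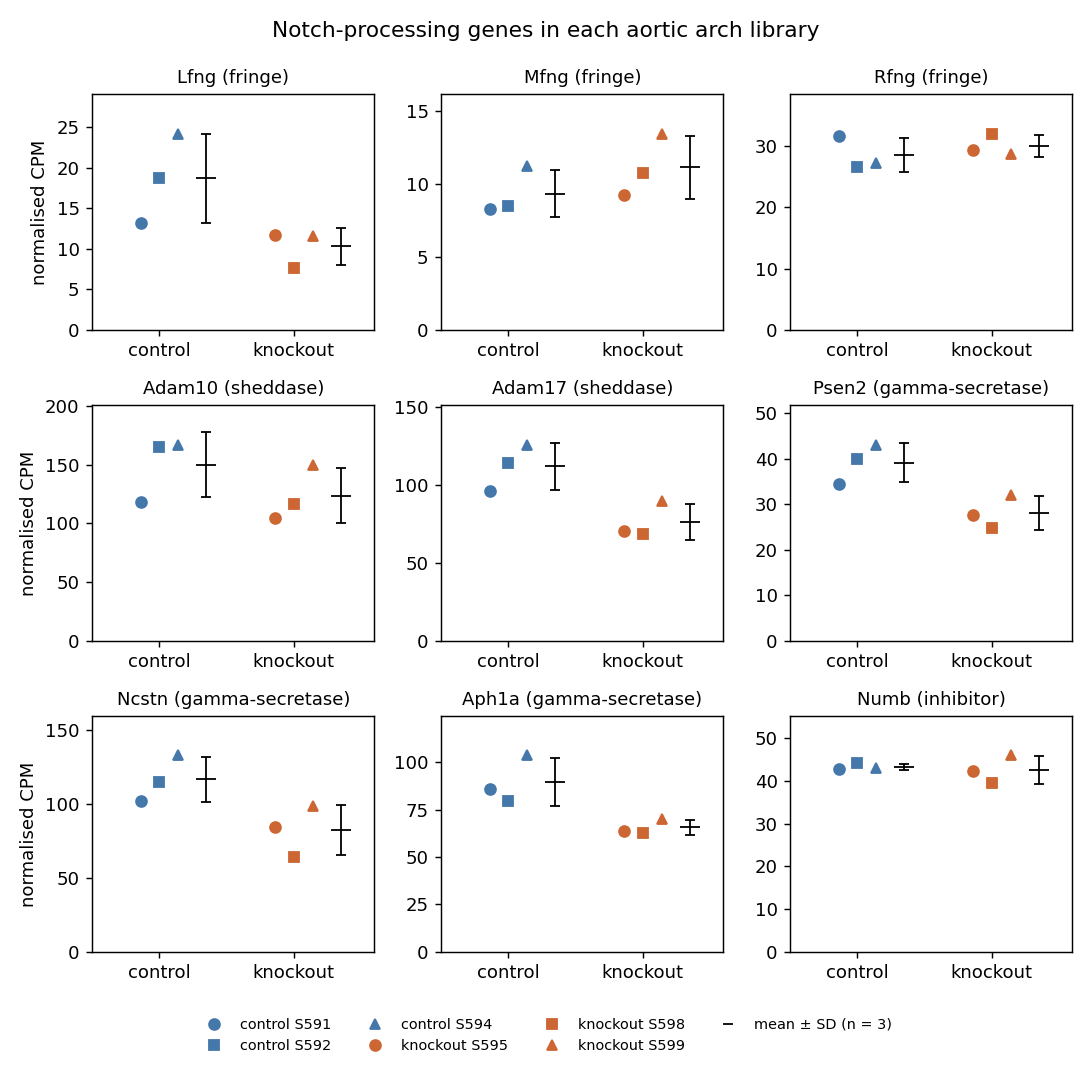
Normalised CPM (vertical axis, from 0) of the 9 genes in each control (blue) and knockout (orange) library, with mean ± SD (n = 3) in black. Knockout points lie below all control points for Lfng, Adam17, Psen2, Ncstn and Aph1a, and the groups overlap for Mfng, Rfng, Adam10 and Numb.

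Of the 3 fringe genes, Lfng (lunatic fringe, itself a Notch target in some tissues) stood lower in every knockout library, and for the others the groups overlapped. Because Lfng is under RBPJ control elsewhere, the stretch before its start is shown. RefSeq promoter windows (250 bases before to 50 after a start, GRCm38.p6) were found for 8 of the 9 genes, 11 windows in all. These are the 250 bases before the Lfng start (chr5:140607091-140607340, plus strand), in which capitals mark every match to the motifs searched.
Lfng: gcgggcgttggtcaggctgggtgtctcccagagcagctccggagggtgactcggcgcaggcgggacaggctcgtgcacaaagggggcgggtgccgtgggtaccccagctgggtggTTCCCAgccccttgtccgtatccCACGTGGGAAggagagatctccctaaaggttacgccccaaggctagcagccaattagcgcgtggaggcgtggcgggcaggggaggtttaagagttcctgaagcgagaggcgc

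The motifs, read on both strands, were the RBPJ core TGGGAA, its longer form GTGGGAA (which contains the core) and CACGTG, the E-box that basic helix-loop-helix proteins bind. In Lfng the run CACGTGGGAA holds all of them. The E-box begins 112 bases before the start and GTGGGAA 109 bases before it, so that they overlap by 3 bases. A second TGGGAA lies on the opposite strand, 135 bases before the start. GTGGGAA was also present in 1 window each of Psen2 and Aph1a, shown here as 30 bases with the match in capitals, at chr1:180246022-180246051 (minus strand) and chr3:95893905-95893934 (plus strand).
Psen2: agcacaggagacTTCCCACagatgtttatc
Aph1a: ggccttccggggGTGGGAAttagatgggag

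The Psen2 match is on the opposite strand, 89 bases before the second of its RefSeq starts, and the Aph1a match begins 4 bases before the start. GTGGGAA was thus in 3 of the 11 windows, and in 6.38% of all 32851 windows of this length. TGGGAA was in the same 3 windows and in 25.6% of all. CACGTG was in 3 of the 11 windows (Lfng, Adam10 and the second of Psen2) and in 7.15% of all. These matches describe the letters in the windows and do not show binding.

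Lfng (ENSMUSG00000029570) read 13.2 CPM in control S591, 18.7 in S592 and 24.2 in S594, and in the knockouts 11.6 (S595), 7.67 (S598) and 11.6 (S599). All 3 knockout libraries were below the lowest control, but the gap between S591 and S595 was small beside the spread among the controls. The means were 18.7 ± 5.49 and 10.3 ± 2.27, a knockout level of 55.0% of the control. The log2 fold change was −0.79 (SE 0.25), and its 95% interval −1.37 to −0.21 (limma, adjusted p = 0.156). These values rest on 73 to 195 reads in each library. With array weights the log2 fold change was −0.93 (adjusted p = 0.0495), and over all alternatives the adjusted p ran from 0.0495 to 0.654.

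Mfng (manic fringe, ENSMUSG00000018169) read 8.26, 8.52 and 11.2 CPM in controls S591, S592 and S594, and 9.21, 10.8 and 13.4 in knockouts S595, S598 and S599. The groups overlapped, with the highest value in a knockout library and the lowest in a control. The log2 fold change was 0.23 (95% interval −0.22 to 0.68, limma adjusted p = 0.556), and the sign turned when S595 was the only knockout library (−0.0059). Rfng (radical fringe, ENSMUSG00000025158) read 31.7, 26.6 and 27.2 CPM in the controls and 29.3, 32.1 and 28.7 in the knockouts, in the same order of libraries. These ranges lay almost on top of each other (log2 fold change 0.07, 95% interval −0.20 to 0.35, adjusted p = 0.767).

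Per kilobase of merged exon length, Rfng stood highest of the fringes in both groups, at 11.5 ± 1.12 CPM per kb in controls and 12.1 ± 0.72 in knockouts. Lfng stood at 7.47 ± 2.19 and 4.11 ± 0.907 CPM per kb, and Mfng at 3.29 ± 0.575 and 3.92 ± 0.756. Lfng was above Mfng on this scale in all 3 controls, by 1.82-fold to 2.49-fold. Among the knockouts the same ratio was 1.43 (S595), 0.808 (S598) and 0.974 (S599), so that the order of these neighbours was not resolved there. With the longest coding transcript as the length, the mean ratio was 1.61 in the control and 0.765 in the knockout libraries. This comparison of Lfng with Mfng was chosen after the values were seen and was not tested.

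Both sheddases stood lower on average, with the groups apart for Adam17 and overlapping for Adam10. Adam10 (ENSMUSG00000054693), the protease that makes the ligand-dependent cut of Notch in most settings, read 119 CPM in control S591, 165 in S592 and 167 in S594. The knockout readings were 105 (S595), 117 (S598) and 149.5 (S599). Knockout S599 lay above control S591, and the log2 fold change of −0.28 had a 95% interval of −0.69 to 0.14 (limma, adjusted p = 0.431).

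Adam17 (ENSMUSG00000052593), also called TACE, is best known for releasing tumour necrosis factor from the cell surface and can also cut Notch. It read 95.9, 114 and 126 CPM in controls S591, S592 and S594, and 70.4, 68.1 and 89.3 in knockouts S595, S598 and S599. Every knockout library was below every control, with S599 nearest. The means were 112 ± 14.999 and 75.9 ± 11.6, a knockout level of 67.9% of the control. The log2 fold change was −0.55 (SE 0.14), and its 95% interval −0.89 to −0.22 (limma, adjusted p = 0.122). This was the smallest adjusted p of the 9 genes by limma. It passed with array weights (−0.61, adjusted p = 0.0411) and with DESeq2 (−0.55, adjusted p = 0.0439), and over all alternatives the adjusted p reached 0.479. Per kilobase of merged exon length, Adam10 stood above Adam17 by 1.95-fold ± 0.155 within the control libraries and 2.37-fold ± 0.175 within the knockouts. With the longest coding transcript these were 1.30-fold and 1.58-fold.

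The gamma-secretase subunit genes Psen2, Ncstn and Aph1a stood lower by similar amounts, and for each of them the groups did not overlap. Psen2 (presenilin 2, a catalytic subunit, ENSMUSG00000010609) read 34.6, 39.9 and 43.2 CPM in controls S591, S592 and S594 and 27.6, 24.7 and 32.0 in knockouts S595, S598 and S599. All knockout values were below the lowest control, again with S599 nearest. The means were 39.2 ± 4.35 and 28.1 ± 3.66, and the log2 fold change was −0.47 (SE 0.14, limma adjusted p = 0.140, or 0.0495 with array weights).

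Ncstn (ENSMUSG00000003458) encodes nicastrin, the large glycoprotein that takes part in substrate docking. It read 102, 115 and 133 CPM in the controls and 84.2, 64.2 and 98.2 in the knockouts, in the same order of libraries. The gap between control S591 and knockout S599 was narrow beside the spread within either group. The means were 116 ± 15.3 and 82.2 ± 17.1, with a log2 fold change of −0.51 (SE 0.17, limma adjusted p = 0.166).

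Aph1a (ENSMUSG00000015750) encodes one of the alternative APH1 scaffold subunits. It read 85.7, 79.6 and 104 CPM in the controls and 63.8, 62.9 and 70.2 in the knockouts. The knockout libraries lay close together and all below the lowest control, S592. The means were 89.6 ± 12.5 and 65.7 ± 3.98, with a log2 fold change of −0.44 (SE 0.12, limma adjusted p = 0.129). Exons of Car14 on the opposite strand cover 12.9% of the Aph1a exon bases in the GENCODE annotation. Reads there cannot be told apart in libraries of a kit that does not mark strand. For Ncstn, Adam17 and Numb the overlapped share was 4.91% (Copa), 4.35% (Iah1) and 4.24% (Gm46367), and for the other 5 genes it was 0.

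**Figure D2:**
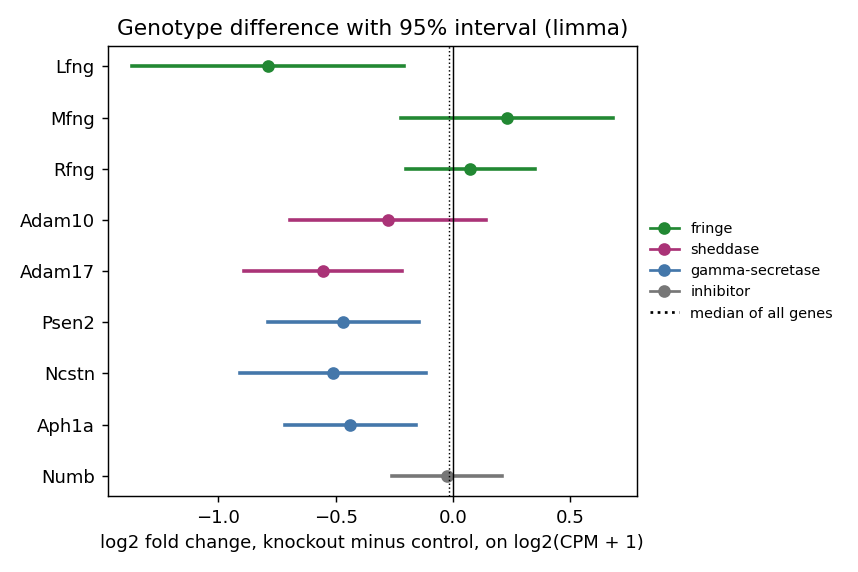
Log2 fold change (knockout minus control on log2(CPM + 1)) of the 9 genes as points with 95% intervals from limma, coloured by role, with the median of all genes dotted. The intervals of Lfng, Adam17, Psen2, Ncstn and Aph1a lie below 0 and those of the other 4 genes span it; 0 of the 9 passed after adjustment.

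For Psenen, Aph1b and Aph1c, which encode other subunits, the groups overlapped. Psenen, the gene of PEN-2, read 44.5, 43.9 and 45.0 CPM in the controls and 47.1, 36.0 and 39.9 in the knockouts (limma, adjusted p = 0.610). Aph1b read 22.8, 26.8 and 17.7 against 31.4, 23.7 and 35.5, with a positive log2 fold change (0.41, adjusted p = 0.298). Its near-identical neighbour Aph1c makes these reads uncertain, and Aph1c itself read 18.7, 20.5 and 19.4 against 10.7, 9.50 and 22.1. Psenen and Aph1c were chosen for mention as subunits, whatever their values.

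Per kilobase of merged exon length these subunit genes in the controls ran from Psenen at 34.9 ± 0.433 CPM per kb through Ncstn (29.3 ± 3.86), Aph1a (26.0 ± 3.62) and Psen2 (9.05 ± 1.00) to Aph1b (4.34 ± 0.885) and Aph1c (3.75 ± 0.166). Ncstn and Aph1a overlapped in their ranges, as did Aph1b and Aph1c. With the longest coding transcript as the length the order of these genes was the same.

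Numb (ENSMUSG00000021224) varied least of the 9 among the controls, with a coefficient of variation of 1.78%. It read 42.7, 44.2 and 43.0 CPM in controls S591, S592 and S594, and 42.4, 39.5 and 46.0 in knockouts S595, S598 and S599. The knockout libraries lay on both sides of the controls. Its log2 fold change was −0.03 with a 95% interval of −0.26 to 0.21, that is from 0.836-fold to 1.15-fold (limma, adjusted p = 0.913). The sign turned after quantile normalisation (0.02), after median centring (0.04) and without knockout S598 (0.03). The related gene Numbl, chosen as its relative, read 36.7, 38.7 and 41.7 in the controls and 45.3, 46.5 and 40.5 in the knockouts (adjusted p = 0.408).

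Ratios within a library do not depend on the scaling between libraries, and 5 were compared by exact permutation, two-sided, in which 3 against 3 libraries cannot go below a p of 0.1. The ratio of Lfng to Rfng read 0.417, 0.703 and 0.891 in controls S591, S592 and S594 and 0.397, 0.239 and 0.403 in knockouts S595, S598 and S599. The knockout ratios were all below the control ratios, narrowly so against S591. The mean log2 ratio differed by −0.92 (SE 0.41, exact permutation p = 0.1, the smallest possible, and 0.25 after adjustment over the 5 ratios). The ratio of Adam17 to Adam10 read 0.808, 0.690 and 0.751 in the controls and 0.671, 0.583 and 0.597 in the knockouts. These groups did not overlap either (difference −0.28, SE 0.09, exact permutation p = 0.1, adjusted 0.25).

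Ratios between the subunit genes overlapped between the groups. Psen2 to Ncstn read 0.339, 0.348 and 0.326 in the controls and 0.328, 0.385 and 0.326 in the knockouts (log2 difference 0.03, SE 0.08, exact permutation p = 0.8). Aph1a to Ncstn differed by 0.07 (SE 0.16, exact permutation p = 0.8) and Mfng to Rfng by 0.17 (SE 0.26, exact permutation p = 0.6), each with overlapping groups. For these 3 ratios the difference was within its standard error, and the sign turned when single libraries were left out.

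**Figure D3:**
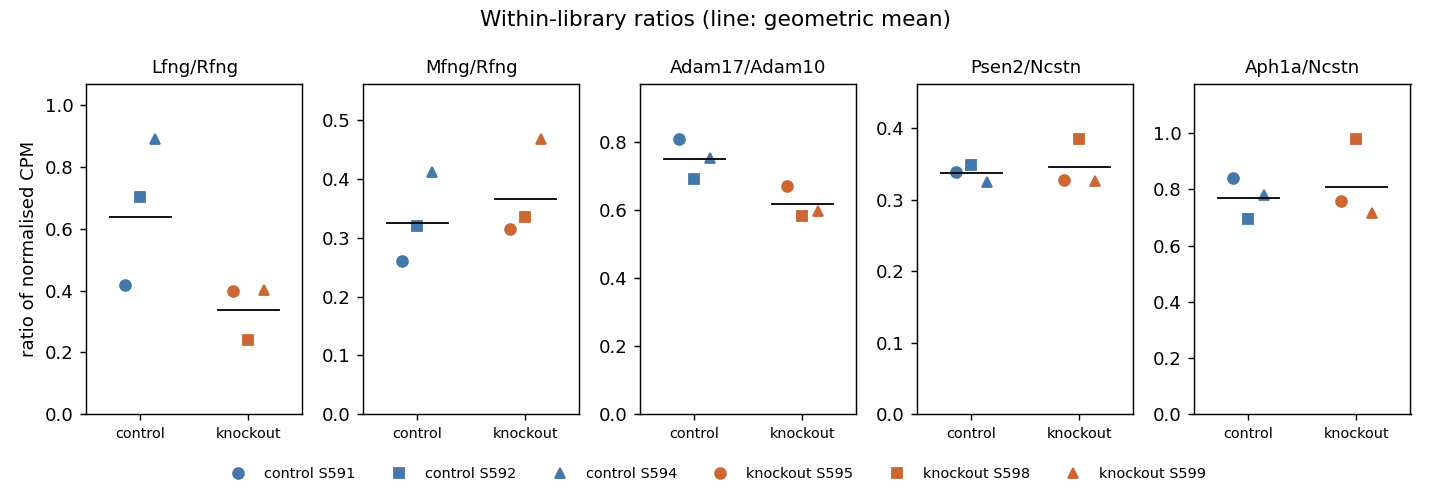
Ratio of normalised CPM (vertical axis, from 0) between gene pairs within each control (blue) and knockout (orange) library, with the geometric mean as a line. The groups are apart for Lfng/Rfng (0.417 to 0.891 against 0.239 to 0.403) and Adam17/Adam10 (0.690 to 0.808 against 0.583 to 0.671), and overlap for the other 3 ratios.

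The lower genes varied together across libraries, and with markers of macrophages and of other cell types. The summed level of 12 macrophage markers (Cd68, Adgre1, Csf1r and others) was 5821 CPM in control S591, 7726 in S592 and 9630 in S594, while the knockouts had 3193 (S595), 2507 (S598) and 5800 (S599). All 12 markers had negative log2 fold changes, for 10 of them the groups did not overlap, and none was at 0 reads in any library. Adam17, Psen2 and Ncstn each ranked the 6 libraries in the same order as this sum, S598, S595, S599, S591, S592 and S594 from low to high. That exact order was found in 2.83% of all genes (404 of 14298). Only genes with all knockout values below all control values can have it, and these were 2029 genes, 14.2% of all. Lfng and Aph1a each departed from the macrophage order by an exchange of neighbouring libraries. Lyz2, the lysozyme gene, made up 60.8% to 71.0% of the sum, and the sum of the other 11 markers (a choice made after the values were seen) ranked the libraries in the same order. Control S591 and knockout S599 had nearly the same sum with Lyz2, but the other 11 markers summed to 2056 CPM in S591 and 1680 in S599, with 10 of the 11 lower in S599. In S591 and S599, Adam17 stood at 85.8% and 79.9% of the control mean, Psen2 at 88.1% and 81.6%, and Ncstn at 87.7% and 84.4%. Aph1a stood at 95.6% and 78.3%, and Lfng at 70.7% and 61.8%. The part of the macrophage markers in these differences was not tested. In whole tissue, fewer cells of a type and less RNA per cell cannot be told apart.

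Markers of other cell types also differed between libraries. For 4 neutrophil markers the sum ran from 36.1 to 105 CPM in the controls and from 18.4 to 29.9 in the knockouts. For 5 red blood cell markers it ran from 288 to 442 in the controls. In knockouts S595, S598 and S599 the red blood cell sum was 120, 1107 and 1684. The sum of 7 fibroblast markers ran from 11825 to 19325 CPM in the controls and from 8454 to 11450 in the knockouts. The groups did not overlap for 3 of the 7, lower in the knockouts, which held for 14.2% of all genes. The order of libraries by this sum was that of Lfng, S598, S599, S595, S591, S592 and S594 from low to high. The sum of 8 smooth muscle markers ran from 12140 to 21001 in the controls and from 21101 to 29363 in the knockouts. The groups did not overlap for 3 of the 8, higher in the knockouts, which held for 11.3% of all genes. From high to low, this sum ranked the libraries S595, S598, S599, S591, S592 and S594, the macrophage order with S595 and S598 exchanged. Of T cell and thymocyte markers 10 were listed, with sums of 32.6 to 43.9 in the controls and 30.1, 208 and 94.8 in knockouts S595, S598 and S599. Their groups overlapped, with S595 below all controls and S598 and S599 above. With S595 alone as knockout, 7 of the 9 genes lay below all controls (all but Mfng and Rfng), against 30.7% of all genes. Of airway epithelium markers 3 were listed, with sums of 2.04 to 7.87 in the controls and 60.2 to 81.0 in the knockouts. The part of these cell types in the results was not tested.

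**Figure D4:**
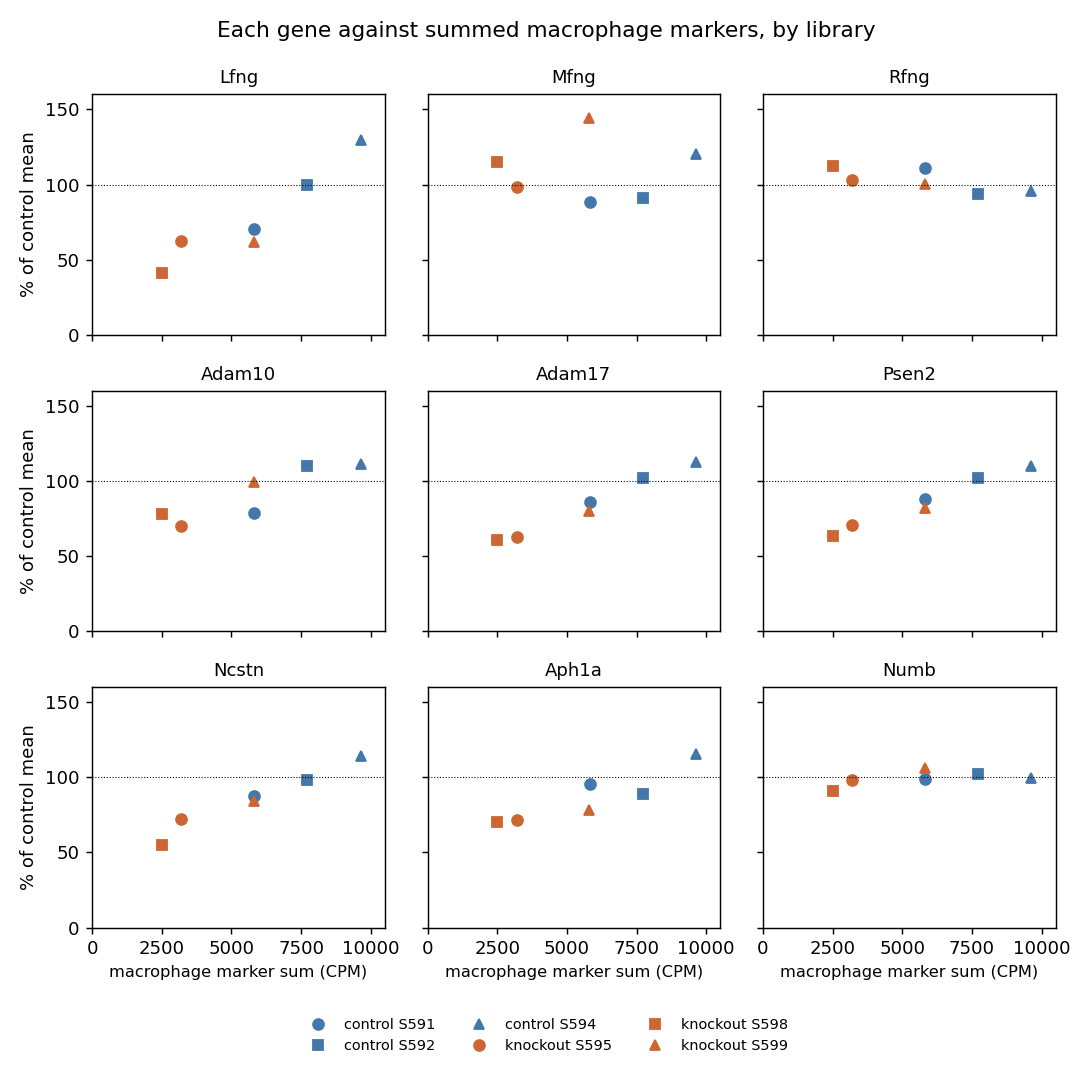
Level of each of the 9 genes as a percentage of its control mean (vertical axis) against the sum of 12 macrophage markers in normalised CPM (horizontal axis), 1 point per library. Adam17, Psen2 and Ncstn climb from knockout S598 (61.0%, 63.1% and 55.1%) to control S594 (112%, 110% and 114%), while Numb stays between 91.1% and 106%.

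For 4 of the genes, 1 of each role, the 3 genes with the most similar profile over the 6 libraries were looked up among 11505 genes with a mean of at least 5 CPM. Libraries were the only points, so these correlations are descriptive. The profile of Lfng was most like those of Tgfb1 (Pearson r 0.999), Plekhm1 (0.997) and Ttc7 (0.9965). Adam17 had Slco2a1 (0.998) and Coro2a (0.998) among its 3. Psen2 was most like Lgals9 (0.999), Vav1 (0.999), a signalling gene of blood cells, and Cndp2 (0.999). Such likeness was common, since 1019, 975 and 1035 genes had r above 0.9 with Lfng, Adam17 and Psen2. Numb had 51, led by Siae (0.9895), Rufy3 (0.987) and Cmpk2 (0.981).

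Among listed enzymes that add or extend O-linked sugars on Notch, 0 of 9 genes passed an adjusted p of 0.05 by limma. Before adjustment (p under 0.05) 1 was lower and 0 higher, and the median log2 fold change was 0.0022. The lower count is near the share over all genes, of which 12.0% were lower and 8.04% higher. Pofut1, which adds the O-fucose itself, read 69.4, 67.5 and 65.3 CPM in the controls and 68.4, 69.5 and 69.0 in the knockouts (named as the enzyme before fringe). The lower gene was B4galt1, a galactosyltransferase that can extend the sugar after fringe. It read 129, 154 and 171 in the controls and 112, 102 and 124 in the knockouts, with no overlap (log2 fold change −0.42, adjusted p = 0.150). Xxylt1, a xylosyltransferase of the O-glucose sugars, had −0.20 (adjusted p = 0.357).

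Several relatives and regulators of the sheddases stood lower in the knockout arches. Of 17 listed, 9 had an unadjusted p under 0.05 on the lower side (12.0% of all genes did) and 0 on the higher. Their median log2 fold change was −0.29, and 0 passed after adjustment by limma. Furin, the protease that makes the first cut of Notch in the secretory pathway, read 118, 125 and 166 CPM in controls S591, S592 and S594 and 94.1, 86.0 and 82.7 in knockouts S595, S598 and S599. All knockout values were below the controls (log2 fold change −0.62, limma adjusted p = 0.112, or 0.0445 without control S591). Without S591, limma called 470 of the 14298 genes lower. Tspan14, a tetraspanin that carries Adam10 to the surface, read 55.9, 56.7 and 67.4 against 42.4, 30.6 and 43.6, again with no overlap (−0.62, adjusted p = 0.121). DESeq2 called both (adjusted p of 0.0148 for Furin and 0.0339 for Tspan14), in a test that called 4.56% of the genes it adjusted as lower. The macrophage sum given above is lower in the same 3 libraries, and its part in these values was not tested.

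The substrates of this machinery are the Notch receptors. Of 8 receptor and ligand genes, 1 was lower and 1 higher before adjustment (p under 0.05), near the shares over all genes (12.0% and 8.04%), and 0 passed after adjustment by limma. Notch1 read 44.2, 42.2 and 50.6 CPM in the controls and 32.9, 32.7 and 28.9 in the knockouts (log2 fold change −0.52, limma adjusted p = 0.111). It passed with DESeq2 (adjusted p = 0.0346) and with array weights (adjusted p = 0.0451), where 4.56% and 5.06% of genes were called lower. The ligand gene Jag1 read 74.5, 73.2 and 76.0 against 80.0, 91.7 and 92.9 (0.24, limma adjusted p = 0.229). Jag1 did not pass with DESeq2 (adjusted p = 0.279) or with array weights (adjusted p = 0.0991). In both genes the groups did not overlap, in opposite directions.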

How the data were processed

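The deposited values are a normalised signal, 1 per gene and library, on a linear scale. Checked on the values, each equals (reads + 0.5) in CPM of a scaled library size, and whole reads were recovered from 100% of them at a tolerance of 0.01. Tools named in the submitters' processing notes, with no role stated, were Bowtie 0.12.7, RSEM 1.16, cutadapt 1.6.1, CASAVA 1.8, edgeR and limma, and the build was NCBIM37. The annotation is not given in the sources used here. Libraries were TruSeq v2, per the labels' protocols. The columns give the group and a library number only.

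Symbols were matched for 13828 of 14298 identifiers. The groups were compared with limma 3.58.1 (R 4.3.3) on log2(value + 1) with a variance trend, after a filter of 1 CPM in 3 libraries that removed 0 genes, two-sided, with Benjamini-Hochberg adjustment over all 14298 genes and a threshold of 0.05. The fit was run on simulated data in which libraries differed only in depth, count noise and the genes set to change. That run does not show how the fit performs on these mixed tissues. Alternatives were other pseudocounts, filters, scalings and variance models, array weights, libraries left out, and edgeR 4.0.16, DESeq2 1.42.0 and limma-voom on recovered reads. Lengths and exon overlaps came from GENCODE M21 (GRCm38), another annotation than the authors'. No pair of libraries was a duplicate (chi-square per degree of freedom 12.55 to 34.11 within groups and 15.18 to 84.2 between them). The 9 genes and all lists were chosen with earlier results of these data known. Named were the 9 genes, Rbpj and Cdh5, the 2 genes of each list with the smallest p, and the most similar profiles; some genes these rules or lists cover are not reported here. For other genes the text says how they were chosen. Cdh5 read 132 ± 12.7 CPM over the controls and 139 ± 51.1 over the knockouts (n = 3 each).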

Additional observations from a re-analysis of the deposited data

How the results depend on the processing

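No paired analysis was possible because the columns carry library numbers and not the replicate numbers of the titles. The number of all genes past the threshold, 3 in the reported comparison, was 0 with a pseudocount of 0.1 or 0.5, with a filter of 5 CPM, by edgeR, by limma-voom and without S598 and S599, 1 with no variance trend, 10 at a threshold of 0.10, 900 by DESeq2 and 1011 with array weights. Leaving out 1 library gave from 0 to 671, the highest without control S591. Of the 9 genes, 3 passed with array weights (Lfng −0.93, Adam17 −0.61, Psen2 −0.53), 1 with DESeq2 (Adam17 −0.55), and 0 in the other alternatives. Signs turned near 0 for Numb (0.021 after quantile normalisation, 0.038 after median centring, −0.081 to 0.027 with 1 library left out), for Mfng (−0.0059 without S598 and S599), for Rbpj (−0.16 without both, −0.045 to 0.12 with 1 left out) and for Cdh5 (−0.27, −0.26 to 0.17, and −0.014 with array weights). Without S598 and S599 the log2 ratio difference was −0.049 for Mfng/Rfng, −0.041 for Psen2/Ncstn and −0.022 for Aph1a/Ncstn, and with 1 library left out it ran from −0.0020 to 0.35, from −0.045 to 0.076 and from −0.064 to 0.16. Lfng, Adam17, Psen2, Ncstn, Aph1a and Adam10 stayed lower under all 20 alternatives. Mfng, with 46 to 111 reads per library, and Lfng, with 73 to 195, had the fewest reads.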

Other observations

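Genes that move Notch to and from the membrane or mark it for breakdown went both ways. Of 15 listed, 2 had an unadjusted p under 0.05 on the lower side and 0 on the higher, where 12.0% and 8.04% of all genes did. The median log2 fold change was 0.13, and 0 passed after adjustment by limma. Dtx4, a Deltex ubiquitin ligase gene, read 47.5, 50.6 and 53.8 CPM in controls S591, S592 and S594 and 25.6, 28.4 and 45.2 in knockouts S595, S598 and S599 (log2 fold change −0.64, adjusted p = 0.156). The epsin gene Epn1, an endocytic adaptor, read 78.4, 75.6 and 90.9 against 70.2, 62.7 and 62.5 (−0.32, adjusted p = 0.169). On the other side, 3 of the 15 had all knockout values above all control values, where 11.3% of all genes did. For 2 of the 15 all were below, where 14.2% of all genes were. The ubiquitin ligase genes Itch and Nedd4, named here after their values were seen, were among the 3 higher genes. Itch read 81.5, 90.7 and 88.0 against 93.7, 94.9 and 98.1 (adjusted p = 0.423), and Nedd4 read 1117, 1037 and 925 against 1239, 1271 and 1249 (adjusted p = 0.307).

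Notch target genes also went both ways, with 2 of 11 lower and 1 higher before adjustment (p under 0.05), beside 12.0% and 8.04% of all genes, and 0 after adjustment by limma. Ccnd1, the cyclin D1 gene, read 33.5, 50.2 and 50.1 CPM in the controls and 21.4, 24.5 and 30.0 in the knockouts. Its log2 fold change was −0.78 (limma adjusted p = 0.121, or 0.0337 without control S591, where 470 of 14298 genes were called lower). Hey2, a Hairy-related repressor gene, read 53.9, 54.3 and 38.2 against 70.8, 99.7 and 82.2 (0.78, adjusted p = 0.112). DESeq2 called both (adjusted p of 0.0170 and 0.00636), and of the 13450 genes it adjusted it called 613 lower and 287 higher. Many of these genes are also set by other pathways in the arch. Of the other gamma-secretase genes listed, 7 in all, 0 were past an unadjusted p of 0.05 in either direction, and the cargo receptor gene Tmed10 had a log2 fold change of −0.25 (adjusted p = 0.279).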
